A study of Mus musculus with 9 samples.

Results

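RelB binding was measured before and after TNF in mouse embryonic fibroblasts (MEFs) labelled Nfkb2-/-, that is, as lacking the gene for the p100 precursor. The material was the 4 peak lists made with an antibody against RelB, 2 libraries from untreated cells (0 h) and 2 from cells kept in 10 ng/ml TNF for 6 h, which together held 11939 of the 25055 peaks in the 8 lists of the series. The other 4 lists were made with an antibody against RelA from the same cells and times. All groups carried this label, so the 0 h libraries control for TNF and not for the loss of p100, and wild-type cells were not analysed here. The cells were immortalised by serial passage under the NIH 3T3 protocol, and the labels do not say whether replicate libraries came from separate cultures, so the spread between them may be technical. A peak list holds no transcript levels, so markers of fibroblasts could not be checked, and it holds reads of DNA inside peaks alone, so Nfkb2 could be looked at only where it had a peak. Peaks of these lists that shared 1 bp or more were joined, which gave 8871 sites. A site was gained when it lay in both 6 h lists and in neither 0 h list, kept when it lay in a list of each time, and lost when it lay in 0 h lists alone.

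RelB is an NF-κB subunit that carries an activation domain and binds DNA as a dimer with p50 or with p52. The p52 subunit is cut from p100, and uncut p100 also acts as an inhibitor that holds RelB and other subunits in the cytoplasm. In cells without p100 there is neither p52 nor this inhibitor, and the RelB found on DNA has p50 as its main possible partner. TNF acts on the canonical pathway, in which the kinase IKK removes IκBα from RelA:p50, and Relb itself is a known target gene of that pathway. Both kinds of dimer read the κB element, a 10-base sequence with a G-rich and a C-rich end.

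The sequences below are the 30 bases around the κB match closest to the centre of the site (mm9, read 5′ to 3′ on the strand that holds the G-rich end first, match in capitals). They show the elements at the kept sites of Traf2 and Il34, at some of the strongest gained sites, and at the starts of Relb and Nfkb2, the genes of RelB and of p100.
Traf2 intron, kept, chr2:25389879-25389908, plus strand: ggtgcagccaGGGACTTTCCactctgcatg
Il34 intron, kept, chr8:113318701-113318730, plus strand: gttctcgccaGGGACTTTCCaatgtgtgga
Stx8 intron, gained, chr11:67905711-67905740, minus strand: gacctcagacGGATATTTCCtaagccaggg
Atg7 intron, gained, chr6:114683304-114683333, plus strand: ctggagtgtaGGGACTTTCCcagcctctgg
Junb, downstream of the start, gained, chr8:87500458-87500487, plus strand: gcgggggggaGGGGATTCCCggaatctgcc
Birc3, first 1 kb, gained, chr9:7873005-7873034, plus strand: ccagggctccGGGGAACTCCagggtgaaaa
Nfkbiz, upstream of the start, gained, chr16:55839016-55839045, plus strand: ttccccgccaGGGCGGTCCCcaagacccgg
Relb, upstream of the start, gained, chr7:20214865-20214894, minus strand: gtgagcagcgGGGGTTTTCCcattcccttt
Nfkb2, first 1 kb, gained, chr19:46379816-46379845, plus strand: accgtggaggGGGAAACTCCtcccccccac

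RelB peaks were scarce at 0 h and abundant after TNF. The 0 h libraries had 35 and 14 peaks and the 6 h libraries 5192 and 6698. Both 6 h values lay far above both 0 h values, and the ratio of the mean numbers was 243. On the log2 scale the mean was higher at 6 h by 8.06 (exact permutation test, two-sided, p = 0.333), and 0.333 is the smallest p that 2 libraries against 2 allow. At a false discovery rate (FDR) under 0.01 the numbers were 6 and 2 at 0 h and 3632 and 3822 at 6 h. Of the 8871 sites, 3015 were gained (34.0%, Wilson 95% interval 33.0 to 35.0), 14 were kept (0.158%, 0.0940 to 0.265) and 31 were lost (0.349%, 0.246 to 0.496). The remaining 5811 lay in a single 6 h list, 2151 of them in that of replicate 1 and 3660 in that of replicate 2. Intervals cover counting error only. The number of gained sites rests on asking for both 6 h lists: without 6 h replicate 1 it was 6688, and without 6 h replicate 2 it was 5181.

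**Figure D1:**
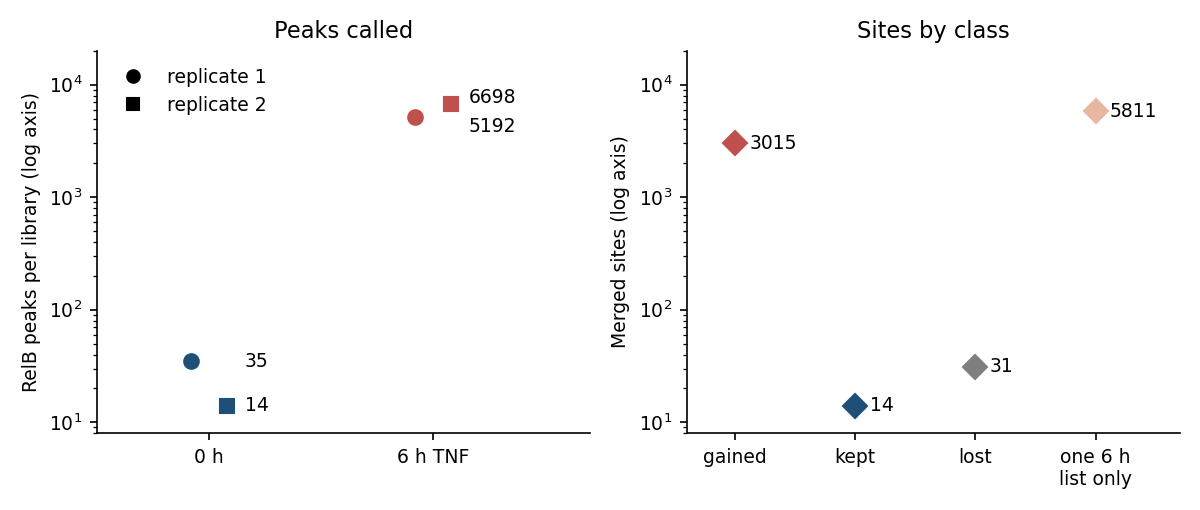
RelB peaks called in each library at 0 h and after 6 h of TNF (left; circles replicate 1, squares replicate 2) and the number of merged sites in each class (right), both on log axes. The 0 h libraries stand at 35 and 14 peaks and the 6 h libraries at 5192 and 6698, and gained sites (3015) outnumber kept (14) and lost (31) ones.

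The lists do not give the total reads of a library, so depth is known only inside peaks, where 0 h libraries had 818 and 317 ChIP reads and 6 h libraries 120352 and 162105. A value of relative depth can be had from the constant by which input reads were scaled in each library, which was 0.464 and 0.529 at 0 h and 0.434 and 0.518 at 6 h. These constants overlapped between the times. Each was the median near the value that recurred most often among peaks with input reads. With it, the fullest-window counts of 16.2% to 50.0% of peaks in a library gave back their fold within 0.01 on the log2 scale. The 0 h lists held only 35 and 14 peaks, so their constants rest on few peaks. Here and below, fullest-window counts are the highest ChIP count and the highest input count of any window in a peak. The windows that gave them can differ from each other and from the window of strongest fold. The 0 h lists also differed in where their peaks lay. Of their peaks, 37.1% and 35.7% were on chromosome X or Y, against 0.886% and 0.851% at 6 h.

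Of the 14 kept sites, 3 were strongly enriched at 6 h: they lay in introns of Traf2 and Il34 and at the start of Nfkbia. All 3 were stronger after TNF, by 1.72 to 2.32 in mean log2 fold over input, and none had a RelA peak at 0 h. The remaining 11 had a mean log2 fold at 6 h between 1.52 and 2.29, and their difference between the times ran from -0.20 to 0.24. The division into 3 and 11, at a mean log2 fold of 3 at 6 h, was made after the values were seen. It uses the 6 h values themselves, so it favours larger differences among the 3, and the contrast is only a description. At Il34, Nfkbia and most of the other sites the 0 h value came from a single library.

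Traf2 encodes an adaptor of TNF receptors. Its kept site (chr2:25389435-25390490, 12498 bp downstream of the gene start) was in all 4 lists. Its fullest window held 20 and 22 ChIP reads at 0 h and 72 and 64 at 6 h. The highest input count of any window was 4 in each 0 h library and 9 in each 6 h library. The log2 fold over input was 3.62 and 3.71 at 0 h and 5.41 and 5.42 at 6 h, so the groups did not overlap. Divided by the scaling constant of each library, the ChIP reads of the fullest window were 43.1 and 41.6 at 0 h and 166 and 124 at 6 h. The site holds the κB sequence GGGACTTTCC at 2 places, at chr2:25389856-25389865 and chr2:25389889-25389898.

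Il34 encodes a ligand of the receptor for colony-stimulating factor 1. The kept site in its intron (chr8:113318562-113318823, 11132 bp downstream of the start) was called at 0 h in replicate 2, with 15 ChIP and 2 input reads in the fullest window and a log2 fold of 2.96. At 6 h the fullest window held 36 and 32 ChIP reads and the log2 fold was 4.91 and 4.46. It was flanked by 4 gained sites within 50 kb of the same gene start, the strongest of them with log2 folds of 3.29 and 4.68. Its central κB match was GGGACTTTCC, the sequence found at the Traf2 site.

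Nfkbia encodes IκBα, the inhibitor that returns RelA to the cytoplasm. The site at its start (chr12:56592417-56594098, centre 377 bp downstream) was called at 0 h in replicate 1, with 14 ChIP and 7 input reads in the fullest window and a log2 fold of 1.82. At 6 h the fullest window held 43 and 44 ChIP reads, the highest input count was 8 in each library, and the log2 fold was 3.80 and 4.49. No κB match lay within 100 bp of its centre, but the whole span held 5 matches, which included GGGACTTTCC at chr12:56592944-56592953.

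The other 11 kept sites lay on Y (6), X (3) and chromosome 3 (2, in an intron of Nlgn1). In 10 of them over 50% of the 24-base words around the centre occurred again in the mm9 assembly, unplaced sequence included. For the pair on chromosome 3 the recurrences were all on unplaced sequence: 100% and 78.7% of words recurred in the whole assembly and 0% among the assembled chromosomes. Input was high at some of these sites but not at all. Over the 11 sites, fullest-window counts were 14 to 47 ChIP and 6 to 34 input reads at 0 h. At 6 h they were 13 to 44 ChIP and 6 to 31 input reads. Seen by reads, the Y site at chrY:2864342-2864627 gave 42 and 45 ChIP reads at 0 h and 34 and 44 at 6 h, so its groups overlapped. Of the 11, 6 also had a RelA peak at 0 h and none had a RelA peak in both 6 h libraries. The part of repeated sequence in these calls was not tested. Without 0 h replicate 1, 5 sites were kept in place of 14.

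**Figure D2:**
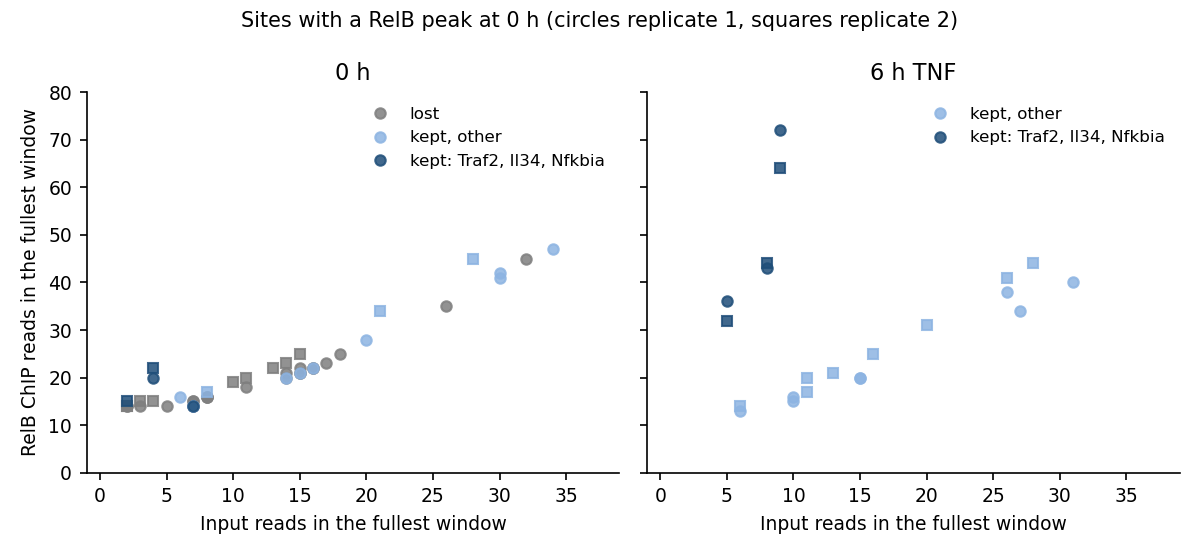
RelB ChIP reads against input reads in the fullest window of each site that had a RelB peak at 0 h, at 0 h (left) and after 6 h of TNF (right; lost sites have no peak there). Points are single libraries (circles replicate 1, squares replicate 2). ChIP and input counts are each the highest of any window and need not come from the same window. At 6 h the sites of Traf2, Il34 and Nfkbia stand at 32 to 72 ChIP reads over 5 to 9 input reads, while at the other kept sites ChIP reads go up with input reads.

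The median length of lost sites was 30 bp. Of the 31, 22 were in the list of 0 h replicate 1 alone, 8 in that of replicate 2 alone, and 1 (chrY:2791583-2791613) in both. That site had 20 and 25 ChIP reads, 14 and 15 input reads, and log2 folds of 1.49 and 1.54. The 12 lost sites with most ChIP reads had, in their fuller library, 21 to 48 ChIP reads over 13 to 35 input reads. They lay on X (2), Y (3), chromosome 1 near Heatr7b1 and Hjurp (3), and near Gm10354, Nlgn1, Abcg2 and Sfi1. Their log2 folds lay between 1.45 and 1.80. Hjurp loads the centromeric histone, Abcg2 is a drug efflux pump and Sfi1 is a centrosomal protein. The highest log2 fold among lost sites, 3.81, was that of a site 153877 bp upstream of Gria1, a glutamate receptor subunit, with 14 ChIP and 2 input reads in 0 h replicate 1. Over 50% of the words recurred in 16 of the 31. A κB match was present in 3 of 31 (9.68%, Wilson 95% interval 3.35 to 24.9), against 4.84% of the flanking windows. None had a RelA peak at 6 h, and 2 had one at 0 h. Without 0 h replicate 1 the number lost was 9 in place of 31.

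The median length of gained sites was 264 bp, against 35 bp for sites in a single 6 h list. A gained site joins at least 2 overlapping peaks, and wide, well-filled peaks overlap more readily, so the rule itself sets such differences between the classes. Their median log2 fold over input was 3.07 in replicate 1 and 3.10 in replicate 2, with ranges of 1.54 to 5.50 and 1.60 to 5.61. They held a median of 25 ChIP reads over 9 input reads in replicate 1 and 30 over 9 in replicate 2, and 73.1% and 64.3% of all ChIP reads in peaks. Because the 2 values of a site share their input and each had to pass a fold of 2, the likeness of the replicates is a description. Over the 3015 sites Spearman's rho between the log2 folds was 0.747, the difference between replicates had an SD of 0.46, and 96.3% of sites agreed within a factor of 2. A log2 fold above 3 in both replicates was found at 1360 sites (45.1%). With 31 exceptions (1.03%), no more than 50% of the words around the centre recurred elsewhere in the assembly.

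**Figure D3:**
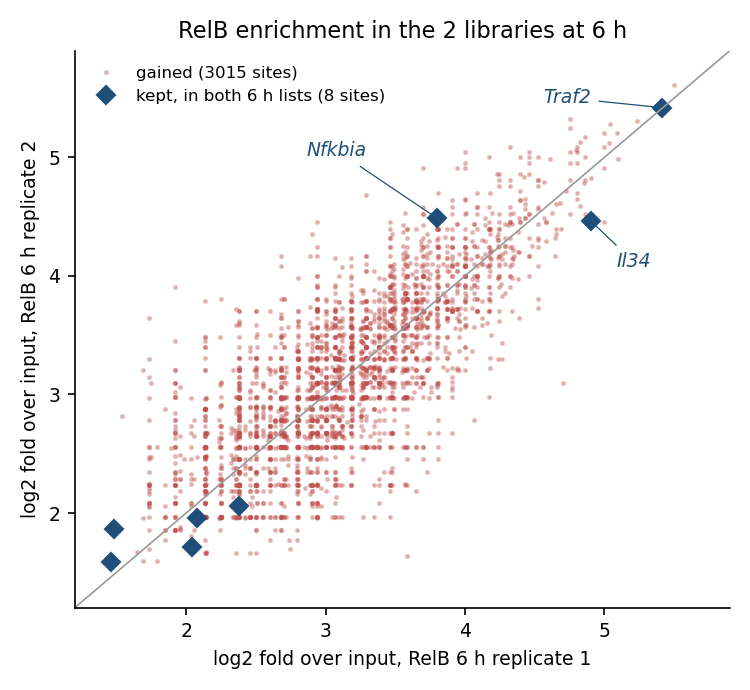
Log2 fold over input at 6 h in replicate 1 (x axis) and replicate 2 (y axis) for the 3015 gained sites and the 8 kept sites with a peak in both 6 h libraries. The line marks equal values. The kept sites of Traf2, Il34 and Nfkbia lie among the stronger gained sites, and the other kept sites lie at log2 folds of 1.46 to 2.38.

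At the edge of the rule, the gained site with the poorest call lay 21217 bp upstream of Gvin1, with log2 folds of 1.54 and 2.82 and, in replicate 1, an FDR of 0.0985. Just outside it, the highest log2 fold of a site in a single list was 4.64, found both in an intron of Nalcn (51 ChIP reads in replicate 2, no peak in replicate 1) and in an intron of Setbp1 (32 ChIP reads in replicate 1, no overlapping peak in replicate 2). Sites in a single 6 h list had median log2 folds of 2.60 in replicate 1 and 2.45 in replicate 2, and a median of 13 ChIP reads in each. Among these, 45.4% and 33.5% had an FDR under 0.01, against 87.6% and 85.7% of gained sites in the same libraries. A peak of the other replicate lay within 500 bp, without overlap, for 27.4% and 16.6% of them, and with peak centres within 500 bp in place of overlap 3505 sites were gained.

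Gained sites lay mostly away from gene starts. With the GENCODE annotation of mm9, 1397 (46.3%) were intergenic, 1202 (39.9%) in introns, 63 (2.09%) in exons and 353 (11.7%, Wilson 95% interval 10.6 to 12.9) within 1 kb of a gene start. Those stretches around starts cover 2.69% of the sequenced genome, so their share of gained sites was 4.34 times their share of bases. The corresponding ratio was 1.08 for introns, 0.749 for exons and 0.803 for intergenic sequence. The median distance to the nearest start of a protein-coding gene was 35253 bp, and 57.9% of gained sites lay less than 50 kb from one. Of the 301 sites within 1 kb of such a start, 164 were upstream and 137 downstream. The median log2 fold in replicate 1 was 3.07 near starts, 3.07 in introns and 3.10 between genes. The share near starts was 11.6% among sites in a single 6 h list, inside the interval of the gained sites.

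The strongest gained sites within 1 kb of protein-coding starts were at Birc3, Trex1, Creb1, Ptpn2 and Nfkbiz. Birc3, which encodes a ubiquitin ligase of the TNF receptor complex, had 88 and 136 ChIP reads and log2 folds of 4.80 and 5.06, in the untranslated part of its first kilobase (chr9:7872992-7873083). Trex1, a DNA exonuclease, had 39 and 63 reads and log2 folds of 4.46 and 5.0. Creb1, the transcription factor that answers to cyclic AMP, had 71 and 90 reads and log2 folds of 4.73 and 4.72 at a site 310 bp upstream. Ptpn2, a phosphatase that acts on JAK and STAT proteins, had 41 and 54 reads and log2 folds of 4.52 and 4.81 without a κB match near the centre. Nfkbiz, a nuclear IκB protein, had 50 and 60 reads and log2 folds of 4.32 and 4.81. All 5 had a RelA peak in both 6 h libraries.

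In gene bodies the strongest gained sites included those in introns of Stx8, Macrod2, Atg7 and Nfic, 18626 to 607857 bp from the nearest protein-coding start. Stx8, a syntaxin of endosomal fusion, had 142 and 146 ChIP reads, log2 folds of 5.50 and 5.61 and 5 κB matches within 100 bp of the centre. Atg7, an enzyme of autophagy, had 87 and 106 reads, log2 folds of 4.80 and 5.04 and 4 κB matches. Outside genes and starts, the strongest gained site, chr7:99642095-99642184, lay 67520 bp upstream of Ccdc90b and had 114 and 137 reads and log2 folds of 5.24 and 5.30. The site 2153 bp past the start of Junb, an AP-1 subunit, had 105 and 107 reads and log2 folds of 5.03 and 5.13. At the site nearest to Cd69 (chr6:129186501-129186927, log2 folds of 5.04 and 5.29), 86.0% of the words recurred elsewhere and no κB match was found.

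A match to the κB consensus lay within 100 bp of the centre at 2123 of 3015 gained sites (70.4%, Wilson 95% interval 68.8 to 72.0), against 12.1% of flanking windows of the same length 1 kb away. The share was 80.2% at the 353 sites near gene starts and 69.1% at the others, and 21.1% of windows at the starts of all 22367 protein-coding genes held a match. Sites in a single 6 h list had a match in 44.9%, with an interval of 43.6 to 46.1 that did not reach that of the gained sites. At gained sites with a match, its median distance from the site centre was 30.5 bp, in a search that reached 100 bp. That limit by itself keeps the value small. In 50 bp bins out to 1 kb, the share of gained sites with a match was highest in the bins beside the centre. The median log2 fold in replicate 1 was 3.01 at the 892 sites without a match, 3.10 at the 1319 with 1, 3.10 at the 579 with 2 and 3.12 at the 225 with 3 or more. In replicate 2 the values were 3.07, 3.11, 3.14 and 3.21. More matches went with gene starts, since 7.85% of sites without a match and 23.1% of those with 3 or more lay near one. GC content, which moves with both, had a median of 46.3% in the first of these groups and 53.2% in the last.

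**Figure D4:**
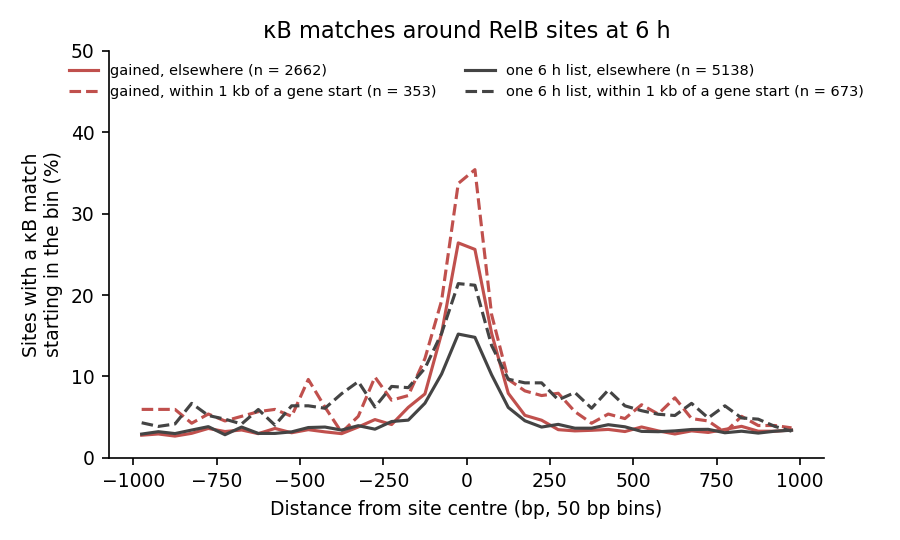
Share of sites (%) with a κB match starting in each 50 bp bin, by distance from the site centre, for gained sites and for sites in a single 6 h list, near gene starts (dashed) and elsewhere (solid). In the bin just before the centre the share is 33.7% for gained sites near starts, 26.4% for gained sites elsewhere, 21.4% for single-list sites near starts and 15.2% for single-list sites elsewhere, and at the edges all lines lie between 2.78% and 5.95%.

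Of the forms the match took, GGGACTTTCC was the most frequent. It was the match closest to the centre at 228 of the 2123 sites (10.7%), against 8 of 898 matches in flanking windows (0.891%). GGGGATTTCC followed with 143 sites, GGGGAATTCC with 123, GGGGCTTTCC with 111 and GGGAGTTTCC with 105. By its ends, the match began with GGG at 88.9% of sites and at 63.8% in the flanks, and it ended in TTCC at 61.3% and 32.2%. Matches that ended in CTCC made up 6.74% at sites and 28.4% in flanks. In all these shares a site gives only the match closest to its centre, while the flanks give every match. The sides were therefore not counted alike. A sequence that matched on both strands was given once, on the strand that reads GGG first. Among the 5 most frequent forms, the median log2 fold in replicate 1 ran from 3.05 for GGGGAATTCC to 3.39 for GGGAGTTTCC, and these medians were not tested against each other.

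Letters of other factors stood beside κB matches to unequal extents, and none of the following differences was tested beyond its interval. The AP-1 element TGANTCA, searched on both strands like the rest, was in 19.4% of gained windows (18.0 to 20.8), against 6.75% of flanks and 4.16% of windows at all protein-coding starts. It was in 20.8% of sites away from starts and 8.50% of those near them, and in 205 of the 892 sites without a κB match. The TEAD element GGAATG was in 20.5% of gained windows and 10.7% of flanks. It can overlap a κB match, and its share was 22.5% at sites without one. The ETS element CCGGAA was in 5.34% and 2.16%, and the SP1 element GGGCGG in 8.72% and 4.66%. These elements can also overlap a κB match. At sites without one the ETS share was 3.14%, with 1.74% in their flanks, and the SP1 share was 5.94%, with 3.7% in their flanks. Near starts the SP1 share was 38.0%, and it was 40.0% at all protein-coding starts. RUNX (TGTGGT, 16.7% and 14.3%), the E-box CANNTG (65.2% and 65.9%), the CTCF core letters CCCTC (47.2% and 41.0%) and the IRF element, GAAA and again GAAA after NN (3.78% and 3.25%) were 0.990 to 1.17 times as frequent as in their flanks, though the flanks of RUNX and CTCF letters lay under the intervals of the gained windows (15.4 to 18.0 and 45.4 to 48.9). The CRE element TGACGTCA was rare, in 16 gained windows (0.531%) and 0.232% of flanks.

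RelA lists give another readout at these sites, though they were called against the same input. A RelA peak was present in both 6 h libraries at 1700 gained sites (56.4%, Wilson 95% interval 54.6 to 58.1), in a single one at 742 and in none at 573. Sites with both had median log2 folds for RelB of 3.27 and 3.30, those with 1 had 2.94 and 2.97, and those with none had 2.80 and 2.78. A κB match was found in 77.2%, 67.1% and 54.5% of them. With gained sites split by RelB strength into 4 bins of equal size, the share with RelA in both libraries was 36.9% in the weakest bin, 48.7% and 61.8% in the middle bins and 78.2% in the strongest, while the κB share was 67.9% in the weakest and 73.5% in the strongest. At 0 h, 1 of the 3015 sites had a RelA peak in any list. The RelA share also rests on reproducibility of RelB: without 6 h replicate 1 it was 28.2%, and without 6 h replicate 2 it was 34.0%.

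Among genes, 3142 of 22367 protein-coding genes (14%) had a gained site less than 50 kb from their start, and 316 (1.41%) had one within 1 kb. Genes where the peaks of the replicates lay close without overlap count as having none. Without 6 h replicate 1 the first number was 5849 and without 6 h replicate 2 it was 4895. Most genes had no such site (86.0%), 2559 had 1, 485 had 2 and 13 had 5 or more. Neighbouring genes can share a site, and a site near a gene is not evidence that RelB regulates it. The counts of the gene lists below are read against 14% and 1.41%. The lists were chosen with earlier results of these data known, so counts above these shares are a description and carry no test.

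Genes of the NF-κB system itself had gained sites at their starts. Of the 5 subunit genes, 4 had a gained site within 1 kb: Relb, Nfkb2, Nfkb1 and Rel. Relb had 65 and 51 ChIP reads at 142 bp upstream (chr7:20214913-20214945), with log2 folds of 4.70 and 3.10, farther apart than the SD of 0.46 between replicates. Its nearest κB match, shown above, lay just outside the called interval. Nfkb2 had the gained site with most reads, 181 and 221 (chr19:46378781-46380849, log2 folds of 4.38 and 4.37), with 5 κB matches around the centre. The same peak held 41 and 44 input reads, so DNA of the first part of Nfkb2 was present in cells labelled Nfkb2-/-. Farther in, an intron had 13 ChIP and 5 input reads at 2818 bp downstream in replicate 1, and 13 ChIP and 0 input reads at 3086 bp downstream in replicate 2. The RelB lists have no peak in the rest of the gene, so they do not show which part the allele lacks. Rel had 60 and 74 reads at 160 bp upstream, and Nfkb1 had 33 and 39 at 80 bp upstream and 58 and 59 at 20746 bp downstream. Rela had no gained site, but each 6 h library had a peak at its start that did not overlap the other: 11 reads and a log2 fold of 2.38 at 204 bp downstream in replicate 1, and 25 reads and a log2 fold of 2.97 at 41 bp downstream in replicate 2. None of these genes had a RelB peak at 0 h.

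All 6 genes of the IκB list had a gained site within 50 kb, 4 of them within 1 kb, with a median of 2 sites a gene where the median gene had 0. Nfkbie, the gene of IκBε, had a site 113 bp upstream with 27 and 33 reads and another 2113 bp downstream with 83 and 135 reads and log2 folds of 4.25 and 4.86. Bcl3, a nuclear IκB protein, had 5 gained sites, from 6147 bp downstream to 4204 bp upstream, with log2 folds of 3.10 to 4.53. Nfkbid had 38 and 71 reads at 368 bp downstream. Nfkbib was counted through 2 gained sites, at 1155 bp downstream (52 and 68 reads) and at 24912 bp downstream (13 and 11 reads). Both lay within 1 kb of the start of another gene. The nearest protein-coding start of the former was that of Sirt2. Nfkbia, whose start was a kept site, had 3 gained sites as well, at 6487 bp upstream and at 45746 and 49402 bp downstream.

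Among genes that act on ubiquitin chains in TNF signalling, 5 of 11 annotated members had a gained site within 50 kb and 2 within 1 kb. Tnfaip3, which encodes A20, had 4 gained sites, 41191 and 6245 bp downstream and 20132 and 30539 bp upstream, with 15 to 78 reads. Its strongest peaks were at the start and missed the overlap between replicates, with 60 reads and a log2 fold of 3.91 at 287 bp downstream in replicate 1 and 85 reads and a log2 fold of 4.30 at 149 bp downstream in replicate 2. Zc3h12a, an RNase that cleaves inflammatory transcripts, had a site with 72 and 51 reads and log2 folds of 4.29 and 4.26. Cyld, a deubiquitinase, had 34 and 53 reads at 13 bp upstream. In the list of TNF receptor signalling 13 of 24 genes had a gained site, 4 of them within 1 kb. The strongest site of Ripk2, a kinase of the RIP family, lay 5031 bp upstream and had 54 and 67 reads and log2 folds of 5.0 and 5.09. Birc3 is described above, and its neighbour Birc2 is in reach of the same sites. Of the survival list 8 of 16 genes had a gained site, 3 within 1 kb.

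Chemokine genes had gained sites in clusters that neighbours shared. Of 28 annotated chemokine genes 16 had a gained site within 50 kb and 3 (Cxcl1, Cxcl10 and Ccl5) within 1 kb. Cxcl1, a neutrophil attractant, had 31 and 22 reads at 27 bp upstream and 55 and 39 at 14918 bp upstream. Cxcl10, an attractant of T cells, had 42 and 77 reads at 133 bp upstream, with log2 folds of 3.56 and 4.43. Ccl2, an attractant of monocytes, had 5 gained sites, all upstream between 2353 and 28621 bp, with 25 to 65 reads, and these were also in reach of Ccl7. In the cytokine list 8 of 21 genes had a gained site. Csf1 had 4, of which the strongest (15513 bp upstream, log2 folds of 4.32 and 4.46) held 5 κB matches. Il6 had none.

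Genes tied to the non-canonical pathway and lymphoid organs, the setting in which RelB is best known, had a gained site within 50 kb in 4 of 16 cases and none within 1 kb. The sites were near Il7, Map3k14, Lta and Ltb, and the last of these genes share a site with Tnf that lay in an intron of a neighbouring gene and had 46 and 70 reads. Of the interferon regulatory and STAT factors 12 of 14 (85.7%) had one, 5 of them within 1 kb. Neighbours shared sites here too, and Stat5a and Stat5b had the same strongest site. The sites of Irf3 and Stat2 lay 20149 and 32844 bp downstream, within 1 kb of the start of another gene. Irf1 had 26 and 20 reads at 14 bp upstream, and Irf2 had 44 and 35 at 16 bp upstream. In the MHC class I list, 9 of 16 annotated genes had a gained site, with starts of B2m (40 and 18 reads), H2-D1 (28 and 34) and H2-K1 (31 and 40) among them. Tap1, Tap2, Psmb8 and Psmb9 were counted through 1 shared site, 15541 to 31515 bp from their starts. The H2 genes are near-identical in places, so the read numbers of H2-D1 and H2-K1 are uncertain.

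The other lists picked for this tissue and treatment, with earlier results known, were also above 14%. Adhesion genes had a gained site in 8 of 16, with Vcam1 at 27 and 31 reads 205 bp downstream and Icam1 at 4 sites that Icam4 and Icam5 mostly share. AP-1 factors had one in 6 of 11, none within 1 kb, matrix and protease genes in 7 of 16, and oxidative defence and iron genes in 7 of 18. Among genes restricted to other tissues, 0 of 15 liver genes and 1 of 15 muscle genes (Atp2a1) had a gained site within 50 kb. Of 16 neuron genes 2 had one (Gad1 and Camk2a), or 12.5%, which is close to 14%. With 15 or 16 genes a list, these counts are too small to set the lists apart from 14%, and they were not tested. None of these genes had a gained site within 1 kb, but so few genes have one that short lists cannot show a lack.

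**Figure D5:**
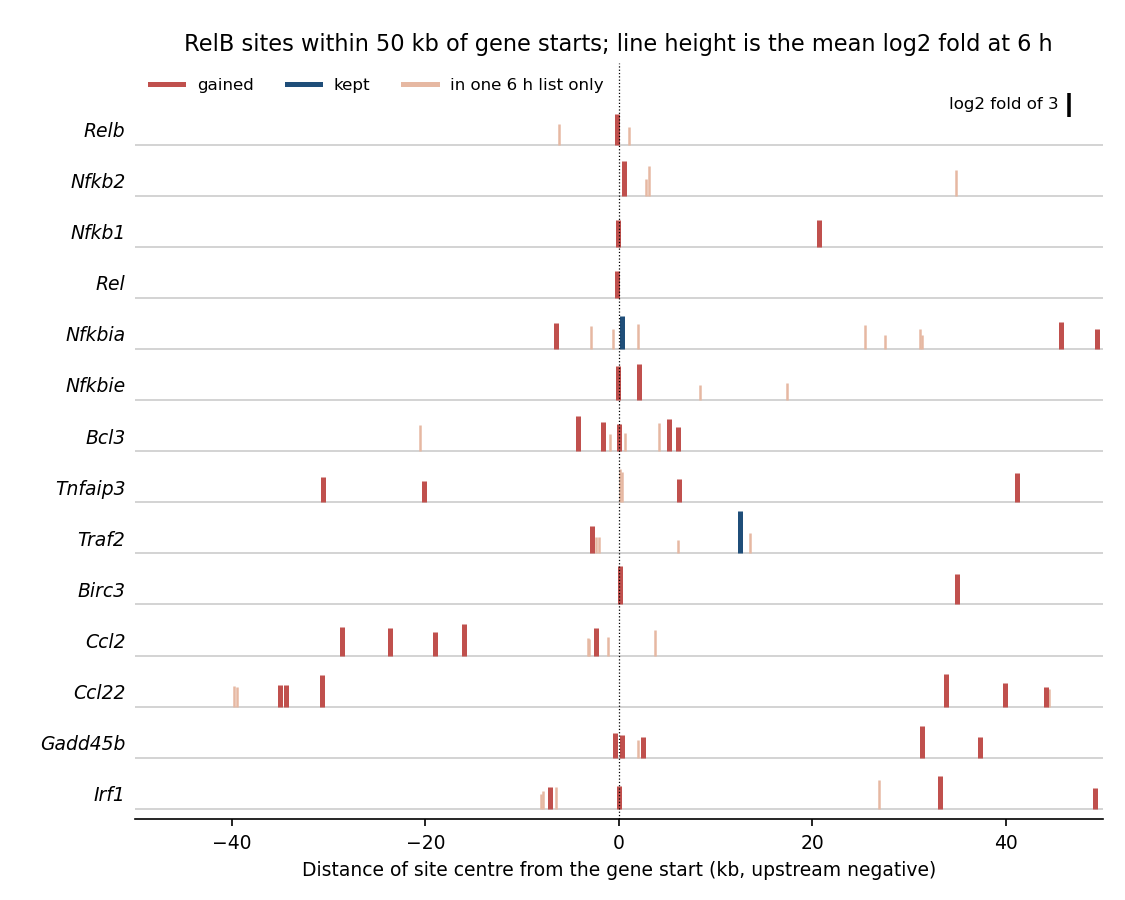
RelB sites within 50 kb of the start of 14 genes, by distance of the site centre from the start (x axis, kb, upstream negative). The height of a line is the mean log2 fold over input at 6 h, with a scale bar of 3, and colours mark gained sites, kept sites and sites in a single 6 h list. Relb, Nfkb2, Nfkb1, Rel, Nfkbie, Bcl3, Birc3, Gadd45b and Irf1 have a gained site within 1 kb of the start. The gained sites of Tnfaip3, Ccl2 and Ccl22 lie farther away, and Tnfaip3 has single-list sites at its start.

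By number of gained sites, Ccl22, a chemokine gene, came first with 6, and they lay 30706 to 34965 bp upstream and 33812 to 44147 bp downstream, with 15 to 90 reads. None had Ccl22 as its nearest protein-coding start, which was Pllp for the upstream sites and Cx3cl1 for the downstream ones. Cx3cl1 and Ccl17 had 4 gained sites each within 50 kb. The others with 5 were Bcl3 and its neighbours Cblc and Ceacam16, Gadd45b and its neighbour Lmnb2, Ccl2 and Ccl7, Cyp1b1 and some predicted genes. Gadd45b, which restrains JNK signalling, had 2 of its sites within 1 kb, at 438 bp upstream (21 and 34 reads) and 383 bp downstream (54 and 45 reads). Cyp1b1, a cytochrome P450, had its strongest site 31076 bp upstream, with 91 and 95 reads and log2 folds of 4.58 and 4.30.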

How the data were processed

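ChIP-seq was carried out by the authors on Nfkb2-/- MEFs with antibodies against RelB and RelA. Per the labels and the study's methods, cutadapt trimmed the reads, Bowtie placed them on mm9 with unique alignments only, and cisGenome found peaks library by library (window of 200 bp, at least 4 reads, fold above 2 and FDR under 0.1) against 1 input made from both replicates. The deposited lists give an FDR, which is a q-value, the log2 fold over scaled input of the strongest window, and raw read counts of ChIP and input in the peak and in its fullest window. All RelB peaks met the stated thresholds (0 outside them).

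Sites were merged, placed by GENCODE genes (37273 genes, of which 22367 are protein-coding) and searched for κB and other motifs within 100 bp of the centre and in 2 flanking windows per site. Site classes and the motif search were checked on simulated data with known answers. Shares have Wilson 95% intervals, and peak numbers were compared by an exact permutation test. Members and the 17 gene lists were chosen with earlier results of these data known. Named sites were the 5 strongest gained ones of each kind (starts, gene bodies, elsewhere), up to 12 kept and 12 lost ones with most ChIP reads, the 5 genes with most gained sites, up to 4 members of a list, Relb and Nfkb2. Others that are named were chosen after their values were seen. Some sites that these rules named are not reported here. Of 263 listed genes 258 were annotated. Alternatives covered FDR, fold, overlap, chromosomes, distances, windows and each library left out. Tools were samtools 1.23.1, pysam 0.24.0 and Python 3.11.15 with pandas 2.3.3, numpy 2.4.6, matplotlib 3.10.9 and scipy 1.17.1.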

Additional observations from a re-analysis of the deposited data

How the results depend on the processing

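The log2 difference in peak number kept its direction under every alternative tried for it. It was 10.07 with an FDR under 0.01, and 7.40 to 8.72 when each library was left out in turn. With the replicate number as a block it was 8.06 (exact sign-flip test, p = 0.5, the smallest that 2 pairs allow). Nothing in the labels says that the numbers pair libraries, and replicate 1 had more peaks at 0 h but fewer at 6 h. Leaving out single libraries gave 3016 to 6688 gained, 5 to 12 kept and 9 to 35 lost sites, shares of 11.5% to 11.8% near starts, 55.6% to 70.4% with κB and 28.2% to 56.4% with RelA, and 3142 to 5849 genes. With an FDR under 0.01, 3 sites were kept, 3 lost, 72.5% of gained sites had κB and 64.4% RelA. With a log2 fold above 2, 5 were kept and 10 lost, and on autosomes 5 were kept. Leaving out sites of repeated sequence, an alternative chosen after seeing the data, gave 2984 gained, 4 kept and 15 lost. The share near starts was 8.19% within 500 bp, 15.1% within 2 kb, 9.98% for protein-coding genes and 15.2% for every transcript start. The κB share was 47.9% within 50 bp and 82.8% within 250 bp, and 81.0% had RelA in either library. Genes with a gained site numbered 1475 within 20 kb, 5576 within 100 kb and 4745 of all annotated genes. Of all these values, 35 kept their direction or stayed within 1.5 times of the count or inside the interval of the share, and 29 did not. Unknown read totals limit all statements on sites without a peak: a site not called at 0 h may still hold reads below the threshold.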

Other observations

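Gained sites were sparse on the X chromosome. It held 18 of the 3015, or 0.108 per Mb, whereas each of the 19 autosomes had between 0.807 (chromosome 14) and 1.72 (chromosome 11) per Mb. Relative to genes the contrast stayed, with 1.93 gained sites per 100 protein-coding genes on X and 9.07 to 19.1 on autosomes. No gained site lay on Y. The RelA lists of the same cells at 6 h were alike in this, with 0.525% and 0.510% of their peaks on X or Y. The cause was not tested.

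The sequence GGGACTTTCC lay within the span of all 3 kept sites that were strong at 6 h, at Traf2, Il34 and Nfkbia, and in none of the other 11 kept or the 31 lost sites. Within the span of gained sites it was found in 315 of 3015 (10.4%), and in 106 of the 5811 sites in a single 6 h list (1.82%). The spans differed in length, with medians of 1056 bp for the 3 kept sites, 264 bp for gained sites and 35 bp for those in a single list, and a longer span has more room for any sequence. This comparison was made after the sites were seen and carries no test.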
